A study of Mus musculus with 3 samples.

Results

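Myelin and mature oligodendrocyte genes were examined in cultures labelled as purified interneurons of the mouse medial ganglionic eminence (MGE), a region of the embryo's ventral forebrain in which many cortical interneurons are born. The group holds 9 genes, Mbp, Mag, Mog, Cnp, Mobp, Cldn11, Myrf, Ugt8a and Enpp6, of 22180 genes with a probe set of their own on the array. A probe set was taken when the platform's table gave it 1 of these symbols and no other, and each gene had 1 such probe set. The genes were selected on their role in myelin with the log2 levels of these same 3 arrays known. Their levels, their differences between cultures and their counts in a test across all genes are therefore a description that supports nothing.

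The series holds 3 biological replicate cultures of wild-type CD-1 tissue from embryonic day 13, which form 1 group with no control. Cells were grown with FGF2 at 40 ng/ml, and from day 5 they received AraC at 1 µM for 24 h, a nucleoside analogue that kills cells as they copy their DNA. After the drug was washed out they were kept for 2 more days. An array read the pooled RNA of all cells in a culture. A signal can therefore not be assigned to a cell type, and fewer cells of a type cannot be told apart from less RNA per cell. Whether the cultures came from separate litters is not stated.

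Oligodendrocytes wrap axons in myelin, a stack of membrane rich in cholesterol and galactolipids and held together by a small set of dedicated proteins. In the forebrain the first oligodendrocyte precursors come from the ventral eminences, the MGE among them. A precursor that leaves the cell cycle passes through a short newly formed stage, in which the transcription factor Myrf is switched on, and then makes myelin lipids and proteins, with Mog among the last to appear.

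Background was set at 6.26 log2 units, the 95th percentile of the mean signal of 1440 probe sets of receptor genes for smell, pheromones and bitter taste. In limma's moderated test across all genes, 8 of the 9 were above this line and Enpp6 was not, although its mean lay over it, and 63.4% of the 20751 genes tested were above. With a margin of 1 log2 unit over the line the count was 6 of 9, without Mog, Mobp and Enpp6, beside 47.6% of all genes. In 8 of the 9, every culture lay over the line, as in 64.5% of all genes. These shares are given for scale only. All 9 genes had their highest value in culture 1, their middle value in culture 3 and their lowest in culture 2, an order found in 17.8% of all genes tested. The difference of culture 1 minus culture 2, taken gene by gene, had a median of 0.79 log2 units over the 9 genes, against -0.02 over all genes tested.

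**Figure D1:**
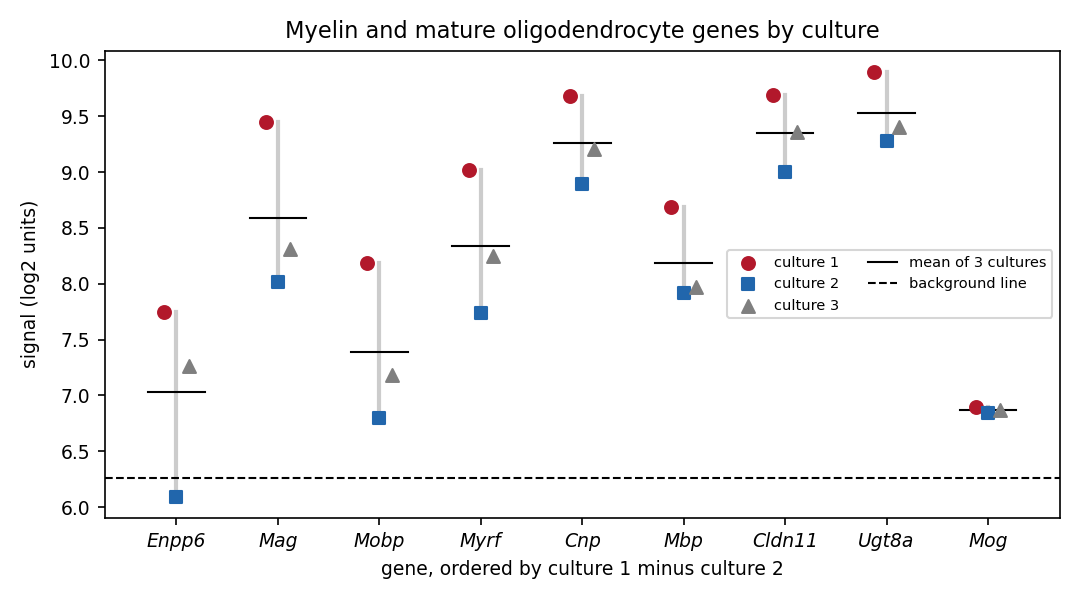
Signal in log2 units of the 9 genes in each of the 3 cultures, with the mean as a bar and the background line of 6.26 dashed. Culture 1 was highest and culture 2 lowest for each gene, Mog was nearly flat, and the Enpp6 value of culture 2 (6.09) was the only one under the line.

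The transcription factor at the head of the programme was Myrf, a membrane-bound protein whose released fragment enters the nucleus and switches on myelin genes. Its signal was 9.02 in culture 1, 7.74 in culture 2 and 8.25 in culture 3, a mean of 8.34 ± 0.65 log2 units (SD, n = 3). Culture 1 stood 2.43-fold over culture 2 on the linear scale, and culture 3 lay between them, at 39.6% of the way from culture 2 to culture 1. Every culture was well over the line.

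Enpp6, a choline phosphodiesterase found in newly forming oligodendrocytes, spanned the widest range of the 9. It gave 7.75 in culture 1, 6.09 in culture 2 and 7.26 in culture 3 (7.03 ± 0.85, SD, n = 3). Its signal was over the line in cultures 1 and 3 and under it in culture 2, and Enpp6 was the gene of the 9 that did not pass the background test. The difference of 1.65 log2 units between cultures 1 and 2 (3.14-fold) ranked 7th of all 20751 genes tested when they were ordered by that difference. Culture 3 stood at 70.7% of the way from culture 2 to culture 1, so for Enpp6 it was nearer to culture 1.

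Ugt8a makes galactocerebroside, the main galactolipid of myelin, by joining galactose to ceramide. Its values were 9.90, 9.28 and 9.40 in cultures 1, 2 and 3 (9.53 ± 0.33, SD, n = 3). Culture 1 was 1.53-fold over culture 2, a smaller ratio than those of Myrf and Enpp6, and cultures 2 and 3 lay close together.

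Of the proteins of compact myelin, Mbp binds the inner faces of the membrane together. It gave 8.68 in culture 1, 7.91 in culture 2 and 7.97 in culture 3 (8.19 ± 0.43, SD, n = 3). Culture 1 alone stood apart, 1.71-fold over culture 2 and 1.64-fold over culture 3. The Mbp gene also makes golli transcripts, which occur in precursors and in some neurons, and which transcripts the probe set reads was not tested. Mobp, a small basic protein of compact myelin, gave 8.19, 6.80 and 7.18 in cultures 1, 2 and 3 (7.39 ± 0.72, SD, n = 3). Its culture 1 value was 2.61-fold that of culture 2 and 2.01-fold that of culture 3.

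Mag is a sialic acid-binding protein of the innermost myelin layer, where it faces the axon. It gave 9.45 in culture 1, 8.02 in culture 2 and 8.31 in culture 3 (8.59 ± 0.75, SD, n = 3). Culture 1 stood 2.69-fold over culture 2, while culture 3 was 1.23-fold over it. By their difference between cultures 1 and 2, Mag ranked 13th, Mobp 19th and Myrf 26th of all genes tested.

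Cnp is an enzyme of the cytoplasmic channels of myelin and is already made by precursors, and Cldn11 forms the tight junctions between myelin layers. Cnp gave 9.68, 8.90 and 9.21 in cultures 1, 2 and 3 (9.26 ± 0.40, SD, n = 3). Cldn11 gave 9.69, 8.997 and 9.36 (9.35 ± 0.35, SD, n = 3). Culture 1 exceeded culture 2 by 1.73-fold for Cnp and 1.61-fold for Cldn11, and culture 3 lay near the middle for both.

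Mog sits on the outer surface of myelin and was the one gene of the 9 that hardly varied. Its values were 6.90, 6.84 and 6.87 in cultures 1, 2 and 3 (6.87 ± 0.03, SD, n = 3), all between 0.58 and 0.64 log2 units over the line. The cultures thus differed by 0.06 log2 units at most, and 7.04% of all genes tested had a range as small or smaller. Mog did not pass with the margin of 1, and its mean lay -0.23 log2 units from the 99th percentile of the receptor probe sets. Whether closeness to background limited its range was not tested.

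Set against all genes, the spread was wide except for Mog, which was set apart after its values were seen. The 9 genes were chosen with these arrays known, so the shares here are a description that supports nothing. In 8 of the 9 genes culture 1 exceeded culture 2 by more than 0.5 log2 units, which held for 4.23% of all genes tested, and in 4 of the 9 (Enpp6, Mag, Mobp and Myrf) by more than 1, which held for 0.376%. Because culture 1 was highest and culture 2 lowest for each of the 9, the same 4 spanned more than 1 log2 unit over the 3 cultures. This count repeats the one before and adds nothing to it. Of all genes, 1.29% spanned as much in any order of cultures. The SD over the 3 cultures had a median of 0.43 over the 9 genes and 0.13 over all genes tested. For Mag, 0.198% of genes tested had as large an SD, for Enpp6 0.13%, and for Ugt8a, whose SD was the smallest after Mog, 7.43%. With 1 array per culture these differences have no replicate of their own and no test.

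**Figure D2:**
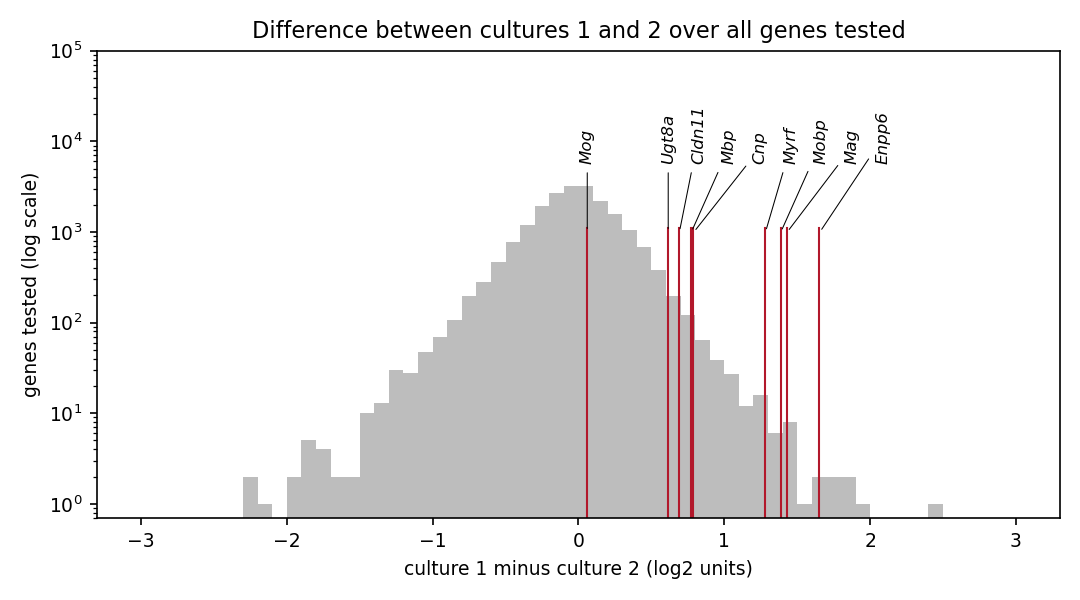
Culture 1 minus culture 2 in log2 units for the 20751 genes tested (grey bars, gene counts on a log axis), with the 9 genes as red lines. Mog (0.06) lies inside the bulk, while the other 8 lie between 0.62 and 1.65 in the right tail.

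The sequences before the starts of 5 of the genes are shown because they differ in how they hold motifs read by Sox and Myrf proteins, and because these genes cover both the widest and the flattest patterns above. RefSeq's promoter table for GRCm38.p6, a C57BL/6J assembly, held 7 of the 9 genes, with 1 start each except Mag, which had 3 and is shown at the first listed. The 250 bases before each start are given 5′ to 3′ on the gene's strand, at chr7:30914864-30915113 (minus) for Mag, chr17:37023399-37023648 (minus) for Mog, chr11:100574689-100574938 (plus) for Cnp, chr9:120149492-120149741 (plus) for Mobp and chr8:46986637-46986886 (plus) for Enpp6. Capitals mark matches on either strand to the Sox core CTTTGT or AACAAT and to the Myrf motif CTGGCAC or CTGGTAC, which do not overlap each other here.
Mag: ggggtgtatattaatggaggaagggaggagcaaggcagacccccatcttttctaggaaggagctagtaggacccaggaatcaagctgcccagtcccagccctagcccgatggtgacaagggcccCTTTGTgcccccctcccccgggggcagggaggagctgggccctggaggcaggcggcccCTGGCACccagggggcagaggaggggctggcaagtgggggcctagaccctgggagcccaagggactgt
Mog: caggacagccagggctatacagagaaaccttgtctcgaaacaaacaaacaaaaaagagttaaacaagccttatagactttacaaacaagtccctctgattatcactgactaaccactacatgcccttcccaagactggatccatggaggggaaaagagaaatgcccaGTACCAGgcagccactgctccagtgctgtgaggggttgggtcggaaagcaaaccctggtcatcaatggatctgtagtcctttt
Cnp: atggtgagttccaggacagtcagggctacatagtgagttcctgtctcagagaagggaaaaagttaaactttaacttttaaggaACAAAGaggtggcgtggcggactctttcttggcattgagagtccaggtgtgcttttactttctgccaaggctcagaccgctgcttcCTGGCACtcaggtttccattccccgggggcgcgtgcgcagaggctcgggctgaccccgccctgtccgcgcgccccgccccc
Mobp: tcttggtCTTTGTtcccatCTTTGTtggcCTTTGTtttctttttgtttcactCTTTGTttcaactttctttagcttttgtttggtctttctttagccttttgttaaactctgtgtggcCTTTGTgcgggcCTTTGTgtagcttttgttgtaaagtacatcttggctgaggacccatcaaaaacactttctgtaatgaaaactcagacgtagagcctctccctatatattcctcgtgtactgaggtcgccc
Enpp6: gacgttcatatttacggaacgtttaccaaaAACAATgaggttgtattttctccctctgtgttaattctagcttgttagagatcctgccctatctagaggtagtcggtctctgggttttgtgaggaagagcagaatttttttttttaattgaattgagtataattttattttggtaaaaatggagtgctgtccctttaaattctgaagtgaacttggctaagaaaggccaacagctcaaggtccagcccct

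The Myrf motif occurred once each before Mag, Mog and Cnp and in none of the other 4 (Mobp, Cldn11, Ugt8a and Enpp6), and 5.93% of all 32851 promoters of this length held it. It ended 61 bases before the start in Mag, 76 in Mog and 74 in Cnp. The Sox cores occurred in 4 of the 7, against 24.0% of all promoters. Mobp held 6 of them, all CTTTGT, in a stretch of repeats of related letters, and 2 promoters of the 32851, Mobp's included, held 6 or more. Mag, Cnp and Enpp6 held 1 each, and Mog, Cldn11 and Ugt8a held none. An E-box, CANNTG, read by Olig and other helix-loop-helix proteins, was in 3 of the 7 (Mag, Cnp and Ugt8a) and in 66.2% of all promoters. Of the genes with the Myrf motif, culture 1 minus culture 2 was 1.43 log2 units for Mag, 0.79 for Cnp and 0.06 for Mog. The signal of Mog lay near the background line. Of the 4 without the motif, it was 1.65 for Enpp6, 1.39 for Mobp, 0.69 for Cldn11 and 0.62 for Ugt8a. The sequences ranged from 38.4% G and C in Enpp6 to 76.8% in Ugt8a, around a median of 52.4% for all promoters. The motifs were chosen with the sequences in view, and a match is a description of letters, not of binding.

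Other genes of myelin and of mature oligodendrocytes were above background in part. Of 28 measured of a list of 32, 19 passed limma's test, 12 with the margin of 1. These counts were near the shares of all genes tested, 63.4% and 47.6%, and so say little about the list. The same shares are the scale for the counts of each list below. The 9 that did not pass included Mal (6.54 ± 0.32, SD, n = 3), a raft protein of myelin, Opalin (5.60 ± 0.25), a membrane protein of mature oligodendrocytes, Ermn (5.72 ± 0.24), which binds actin in them, and Aspa (4.86 ± 0.30), which breaks down N-acetylaspartate. The others were Gjb1, Klk6, Ninj2, Ppp1r14a and Tmem125. The means of Mal, Klk6 (6.31), Ninj2 (6.28) and Ppp1r14a (6.38) lay over the line of 6.26, and those of the rest lay under it. These 9 were named to complete the count, after their values were seen.

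Among those that passed with the margin, Plekhb1, a membrane-associated protein, had the largest SD and gave 9.87, 8.90 and 9.06 in cultures 1, 2 and 3. Gjc3, a glial gap junction protein, gave 9.18, 8.41 and 8.31, and Omg, an oligodendrocyte surface glycoprotein also made by neurons, gave 9.48, 8.73 and 9.41. Culture 1 was highest for all 3. Pllp, a membrane protein of myelin, gave 7.57, 7.56 and 7.48. As a list, 20 of 28 were highest in culture 1, with a median of 0.19 log2 units between cultures 1 and 2. The order of the 9 genes was followed by 14, against 17.8% of all genes tested, the scale for later counts of this order. How many of all genes were highest or lowest in culture 1 was not counted. Such counts, here and below, therefore have no share beside them. The 4 other genes of the list were not analysed here.

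The genes of myelin lipid synthesis and turnover, which flank Ugt8a, were all above background, 12 of 12 (10 with the margin). The widest range belonged to Fa2h, which adds the hydroxyl group to the fatty acids of myelin galactolipids. Fa2h gave 8.50, 7.09 and 8.05 in cultures 1, 2 and 3, a difference of 1.41 between the first and the second, close to that of Mag. It was named after its values were seen. Elovl7, a fatty acid elongase, gave 8.64, 7.80 and 8.33. In contrast Cers2, the ceramide synthase for very long chains, gave 9.28, 9.10 and 9.08, Elovl1, an elongase for such chains, gave 8.16, 7.87 and 7.83, and Arsa, which degrades sulfatide, was lowest in culture 1 at 7.36 against 7.72 and 7.66. The list's median difference between cultures 1 and 2 was 0.16.

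Precursor genes of the same lineage were above background in 15 of 16 cases (14 with the margin), and 13 of 16 were highest in culture 1. Pdgfra, the growth factor receptor of precursors, gave 11.51, 11.42 and 11.42 in cultures 1, 2 and 3. Cspg4, the NG2 proteoglycan, gave 7.998, 8.19 and 8.08 and was thus lowest in culture 1. Ptprz1, a receptor phosphatase of precursors and radial glia, gave 12.65, 12.23 and 12.44. The order of the 9 genes was followed by 7 of the 16. The list's median difference between cultures 1 and 2 was 0.14 log2 units, against 0.79 for the 9 chosen myelin genes. It was 0.19 for the 28 other myelin genes and 0.16 for the myelin lipid genes, both near the precursor value. The median SD was 0.16 for precursor genes, 0.43 for the 9, 0.24 for the other myelin genes and 0.13 over all genes tested. The largest SDs that passed with the margin were those of Nkx2-2 (9.50, 8.54 and 9.15), C1ql1 (8.84, 8.81 and 8.16) and Sox10 (8.94, 8.23 and 8.47). Nkx2-2 and Sox10 are transcription factors that act in the step from precursor to oligodendrocyte, and both followed the order of the myelin genes. Matn4 (6.73 ± 0.47, SD, n = 3) was the precursor gene that did not pass, although its mean lay over the line. It was named to complete the count, after its value was seen.

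Genes of newly formed oligodendrocytes, the stage between, were all above background, 8 of 8 (6 with the margin), and had a median difference of 0.59 between cultures 1 and 2. Gpr17, a receptor held by cells leaving the precursor state, gave 10.75, 9.42 and 10.06 in cultures 1, 2 and 3. Itpr2, a calcium release channel that marks newly formed cells, gave 8.92, 8.14 and 8.20, and Tcf7l2, a transcription factor of the same cells, gave 9.62, 8.87 and 8.999. Bcas1, a marker of early myelinating cells, gave 8.51, 7.25 and 7.68 and was named after its values were seen. The remaining genes of the list did not share the pattern throughout. Rras2 was lowest in culture 1, at 9.20 against 9.71 and 9.58, and Fyn, a kinase that relays axonal signals to Mbp translation, gave 11.10, 11.03 and 10.97. Rras2 and Fyn were also named after their values were seen.

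**Figure D3:**
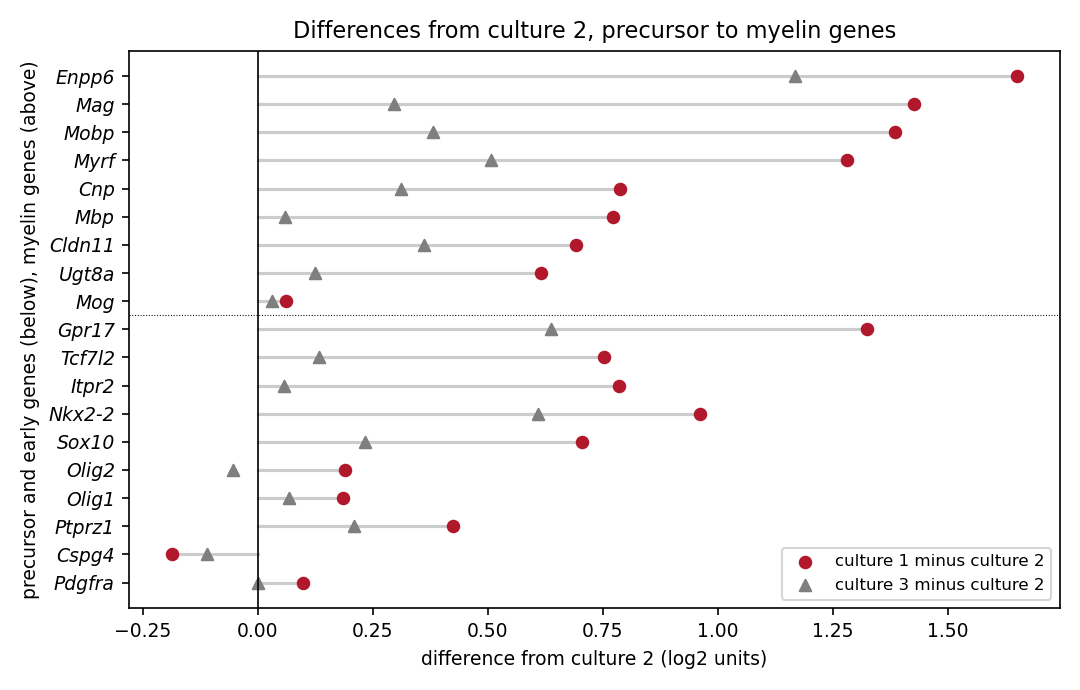
Culture 1 minus culture 2 (circles) and culture 3 minus culture 2 (triangles), in log2 units, for 10 precursor and newly formed genes below the dotted line and the 9 myelin genes above it. Pdgfra and Cspg4 lie near 0 (0.10 and -0.19), and Gpr17 lies at 1.32. The myelin genes other than Mog lie between 0.62 and 1.65. The precursor genes Sox10 (0.71) and Nkx2-2 (0.96) lie within that range. Over the whole precursor list of 16 genes, culture 1 minus culture 2 ran from -0.38 to 0.96, with a median of 0.14. The 10 genes are a chosen part of their lists. Of the newly formed genes not drawn, Bcas1 and Neu4 had culture 1 minus culture 2 at 1.26 and 0.42. Fyn, Cemip2 and Rras2, also not drawn, had 0.06, -0.23 and -0.51. All of these were named after their values were seen.

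All measured regulators of the lineage were above background. Olig1, Olig2, Sox10 and Nkx2-2 are also in the precursor list, and Tcf7l2 and Gpr17 in the newly formed list. Lingo1 here and Nfasc among the other myelin genes recur in the partner list below, so the lists are not separate. Of 13 measured genes that promote differentiation, 13 passed (12 with the margin), 11 were highest in culture 1 and the median difference between cultures 1 and 2 was 0.30. Olig1 (11.84, 11.66 and 11.73) and Olig2 (11.39, 11.20 and 11.14), the factors that define the lineage, spanned 0.18 and 0.24 log2 units across cultures 1, 2 and 3. Of 12 genes known to hold differentiation back, 12 passed (11 with the margin), and 9 were highest in culture 1, with a median difference of 0.35. Hes5, a Notch target, gave 10.27, 9.32 and 9.92, and Id4, which sequesters helix-loop-helix factors, gave 8.74, 7.85 and 8.19. Id2, a relative of Id4, gave 11.22, 10.83 and 11.12, and Hes1, another Notch target, gave 8.56, 8.40 and 8.37. Bmp4, a secreted factor that turns precursors toward astrocytes and that committed precursors themselves make, gave 9.04, 6.55 and 7.89. Its difference of 2.49 between cultures 1 and 2 ranked 1st of all genes tested, and it was named after its values were seen. Zeb2 was not analysed here.

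The receptors and axonal partners of myelin went the other way. Of 13 measured, 12 were above background (9 with the margin), 11 were lowest in culture 1 and the median difference between cultures 1 and 2 was -0.30. Rtn4rl2, a receptor for Mag, gave 7.68, 7.74 and 7.78 in cultures 1, 2 and 3, Lingo1, which joins the related receptor Rtn4r in a complex, gave 7.67, 7.84 and 7.69, and Tnfrsf19, another member of that complex, gave 9.51, 9.62 and 9.57. B4galnt1, needed to make the gangliosides that Mag binds, gave 9.55, 10.10 and 9.85. St3gal2, a sialyltransferase of the same gangliosides, gave 8.01, 8.33 and 8.10, while Nfasc, an adhesion protein with a glial and a neuronal form, gave 10.28, 10.01 and 10.01.

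Marker lists of other cells moved with the cultures too. Neuronal markers were above background in 10 of 10 cases (10 with the margin), and 9 of 10 were lowest in culture 1. Gad1, which makes GABA, gave 9.64, 10.67 and 10.37 in cultures 1, 2 and 3, and the list's median difference between cultures 1 and 2 was -0.30. Its summed log2 level was 109.0, 113.0 and 112.2. Astrocyte markers were above background in 10 of 12 cases (8 with the margin), 11 of 12 were highest in culture 1 and 8 followed the order of the myelin genes. Aqp4, the astrocytic water channel, gave 8.74, 7.53 and 8.34, and Gja1, a gap junction protein, gave 11.22, 10.001 and 10.67. Gfap, which did not pass with the margin, gave 8.51, 6.64 and 8.08 and was named after its values were seen. Its difference of 1.88 between cultures 1 and 2 ranked 4th of all genes tested, ahead of all 9 myelin genes. The list's differences ran from 0.06 to 1.88, with a median of 0.60. The astrocyte list summed to 115.0, 106.7 and 111.4 log2 units, and the 9 myelin genes to 79.3, 70.6 and 73.8. The sums of the astrocyte list and of the 9 myelin genes were thus both highest in culture 1 and lowest in culture 2. The sum of the neuronal list was lowest in culture 1. The part of these lists in the difference between cultures was not tested.

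**Figure D4:**
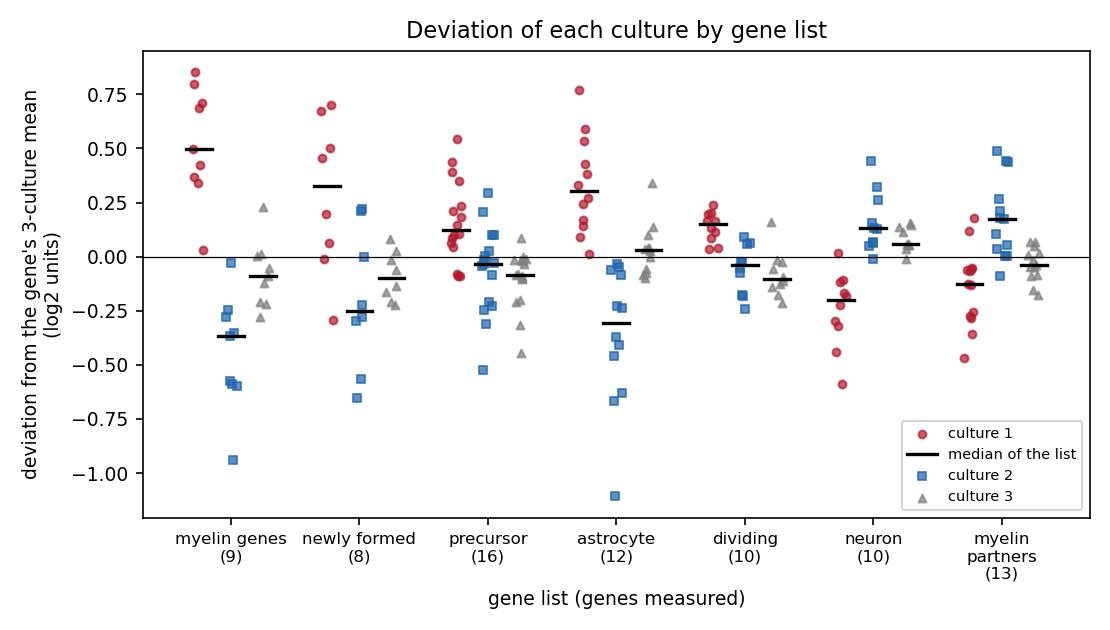
Deviation of each gene from its own 3-culture mean, in log2 units, by culture and gene list, with the median of each list as a bar. The medians of cultures 1 and 2 were 0.49 and -0.37 for the 9 myelin genes, 0.33 and -0.25 for the newly formed list and 0.30 and -0.31 for the astrocyte list. They were 0.12 and -0.03 for the precursor list and -0.20 and 0.13 for the neuronal list. The other myelin genes, not drawn, had medians of 0.12 and -0.10.

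Genes of dividing cells were above background in 10 of 10 cases (9 with the margin), 7 were highest in culture 1, and the median difference between cultures 1 and 2 was 0.21. Mki67, a protein of cycling cells, gave 10.24, 9.86 and 10.01. The list summed to 98.3, 96.4 and 96.2 log2 units. Of peripheral myelin, which Schwann cells make, 6 of 8 measured genes passed (3 with the margin: Pmp22, Drp2 and Pou3f1), with none in the order of the 9 genes and a median difference of -0.07. Pmp2, the fatty acid-binding protein of peripheral myelin, was at 4.95 ± 0.19 (SD, n = 3), under the line, and was named after its value was seen. Microglial and endothelial genes were above background in 5 of 10 and 5 of 8 cases and in none with the margin. Of all genes tested, 63.4% were above background and 47.6% with the margin. Of 8 mesenchymal genes 5 passed, and Acta2 alone did with the margin, at 9.93, 9.87 and 8.38.

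The genes outside all lists whose pattern lay nearest to the median pattern of the 9 were Acadl, Pdpn, Myorg, Timp4 and Wnt7b, by Euclidean distance between deviations from the 3-culture mean. Their distances ran from 0.04 to 0.06 log2 units, while those of the 9 genes ran from 0.08 for Cnp to 0.69 for Enpp6. Acadl, the nearest, gave 10.17, 9.29 and 9.54 in cultures 1, 2 and 3, and Wnt7b, the fifth, gave 9.06, 8.26 and 8.54. With 3 cultures many genes can lie this close, so the list is only a description.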

How the data were processed

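Gene expression was measured by 1-colour Affymetrix array from 100 ng of total RNA in 3 cultures, 1 array each. The deposited values are log2 signals, 1 for each probe set in each culture, which the authors made with oligo and RMA, per the submitters' processing notes. RMA corrects background, brings arrays to a common distribution and summarises probes. Its normalization draws arrays together and can understate differences, and for its versions, its settings and the genome build nothing is given in the sources used. Medians of the 3 arrays lay between 6.52 and 6.57. Arrays give no read depth, so their number limits precision.

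Of 41345 probe sets, 23521 carried 1 symbol in the platform's table, 1814 several and 16010 none. For a gene with several, the probe set with the highest mean gives the value. Level above background was tested with limma 3.58.1 in R 4.3.3, as a one-sided moderated test of the mean against the line, with Benjamini-Hochberg adjustment over the probe sets outside the receptor families and a threshold of 0.05. No gene's level was set against another's, because probes bind with different strength.

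The genes and lists were chosen with earlier results of these data known. Named from each list were the 3 first listed and the 3 with the largest SD among those above background by a margin of 1, and 5 nearest genes. Not all of these are given values in the text, and genes named after their values were seen are marked. The order of cultures under other normalizations was added after the data were seen.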

Additional observations from a re-analysis of the deposited data

How the results depend on the processing

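No paired analysis was possible because the cultures form 1 group. Under 11 alternatives the count of the 9 genes above background ranged from 6 (99th percentile line, and a margin of 1) to 9 (90th percentile line, quantile normalization, and without culture 2). It was 8 without culture 1 and 7 without culture 3, when Mobp did not pass. At the 99th percentile line and with a margin of 1 the calls of Mog and Mobp were lost, the mean of Mobp lying 0.29 and 0.13 over those lines. The count of other myelin genes was 19, and it was 12 with a margin of 1, 14 at the 99th and 23 at the 90th percentile line, and 17 to 19 when 1 culture was left out. For precursor genes it ran from 14 to 16. The mean of Enpp6 lay -0.063 log2 units from the 99th percentile line and -0.23 from the line with a margin of 1, and that of Mog lay -0.23 and -0.39, both under those lines, and Enpp6 had not passed at the 95th percentile either. The order of culture 1, culture 3 and culture 2 held for 9 of 9 genes after quantile normalization and after median centring. The median difference between cultures 1 and 2 was 0.88 and 0.81 there, between cultures 1 and 3 it was 0.50 in both, and between cultures 3 and 2 it was 0.40 and 0.33. With 1 array per culture, none of these differences can be tested.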
